A study of Mus musculus with 4 samples.

Results

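The genes described here are 7 secreted signals of the fetal mouse lung, the Wnt ligands Wnt2, Wnt4, Wnt5a, Wnt7b and Wnt11 and the R-spondins Rspo1 and Rspo3. They were taken by gene symbol and not by a rule on measured values, though with earlier results of these data known. They are 7 of the 20674 genes listed. All 7 were listed in all 4 single-cell RNA-seq libraries. Of these libraries, 1 held cells sorted from a single lung at E16.5 that carried αSMA-GFP, Tbx4-Cre and Rosa26-tdTomato, so that both an active smooth muscle actin reporter and a history of Cre expression under Tbx4 were required. The other 3 held live cells of 3 wild-type lungs at E17.5, taken after lysis of red cells, with no reporter and no sort for a cell type. The strain was C57BL/6 throughout. The labels do not give the litters of the 3 lungs, so the p-values below measure the spread between these 3 lungs.

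Wnt ligands are lipid-modified proteins that act over short distances. They bind Frizzled receptors, together with Lrp5 or Lrp6 in the branch that stabilises beta-catenin, or with Ror and Ryk receptors in branches that steer cell shape and movement. R-spondins do not activate Frizzled receptors themselves. They bind Lgr receptors and the ligases Znrf3 and Rnf43, which otherwise remove Frizzled receptors from the cell surface, and so make a cell more sensitive to a Wnt. In the developing lung, Wnt2 from mesenchyme is required with Wnt2b for the lung to be specified, Wnt7b from epithelium is known for growth of the mesenchyme and vessels, and Wnt5a is known for the shape of the distal airways.

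The cells were grouped on a set of genes that excluded the 7 ligands, so each ligand could be compared between classes that it had not helped to define. After removal of doublets the 3 lungs held 7379 cells, with 1863 epithelial, 1368 endothelial, 1936 mesenchymal, 2180 immune and 32 mesothelial cells. They fell into 15 classes present in every lung, plus the mesothelium, of which lung 2 gave 1 cell. Clusters led by cell-cycle genes were given numbers rather than names. Levels are in CPM, counts scaled to a fixed total, the mean over the cells of a class of each cell's unique molecular identifiers (UMIs) for the gene, scaled to that cell's total. Median UMI totals per cell were between 7201 and 8493.5 in the 3 lungs and 12007 in the sort. Between 7 and 13 cell barcodes were shared by any pair of libraries.

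**Figure D1:**
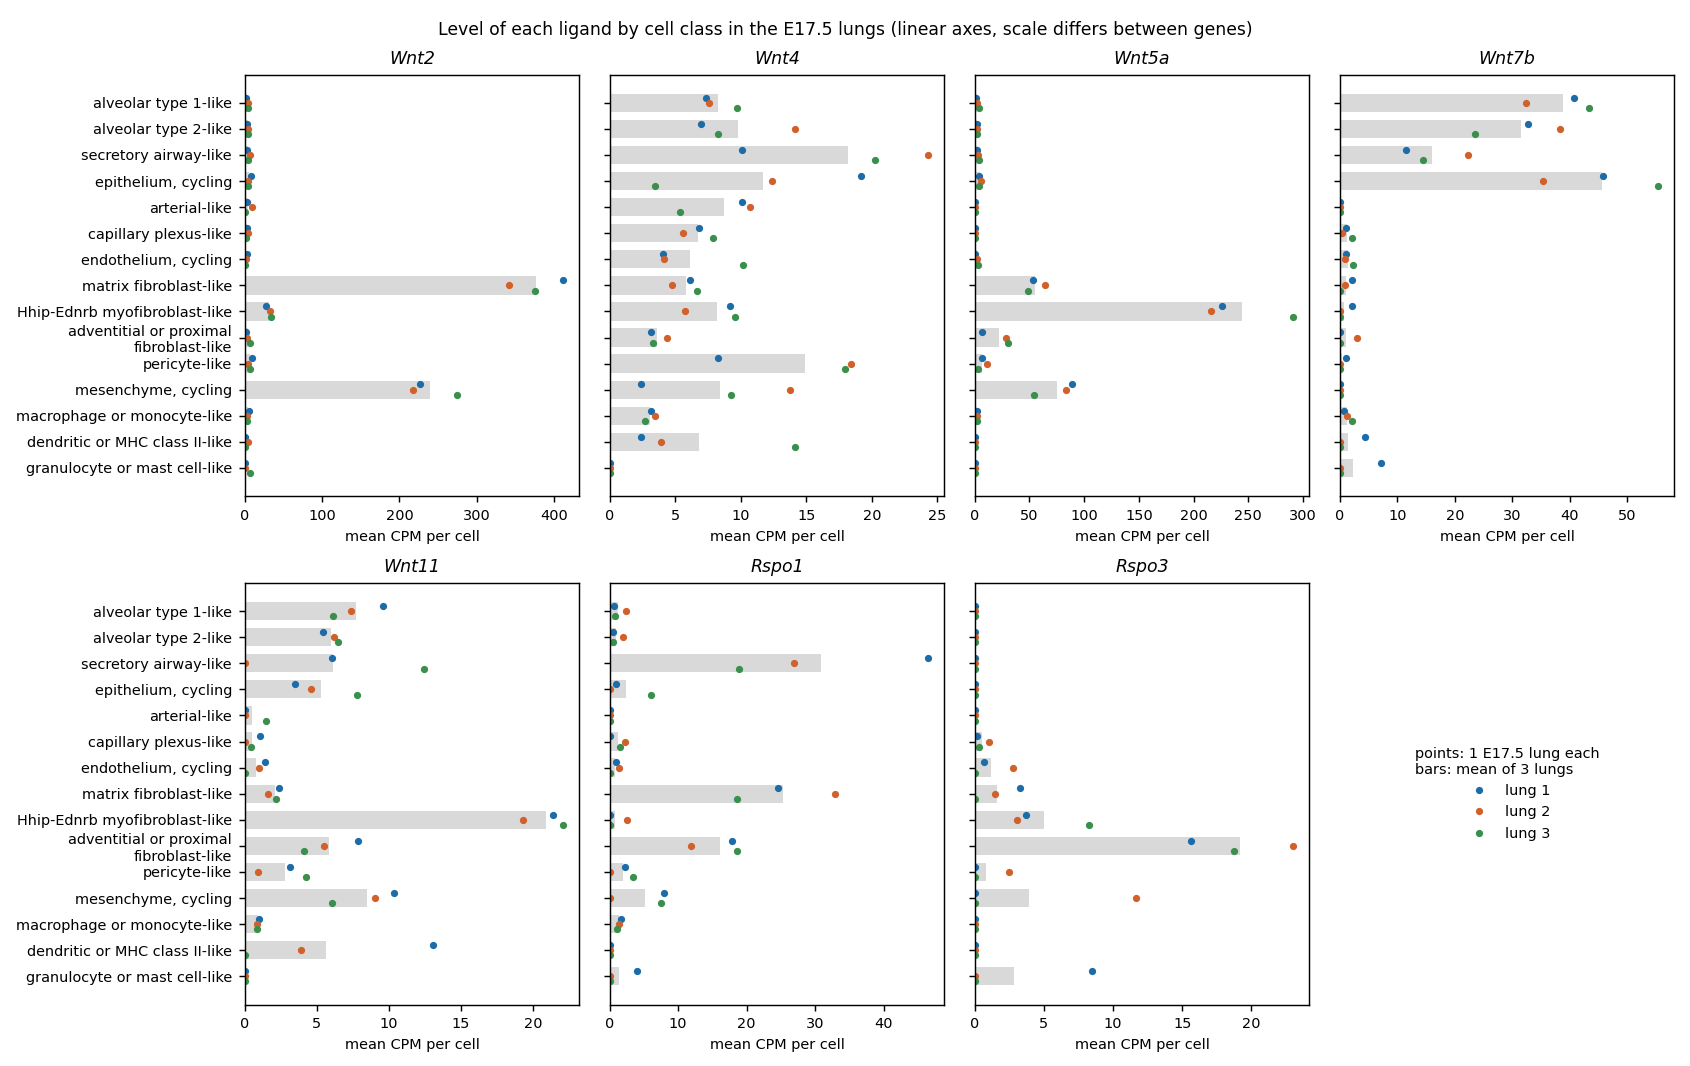
Level of each of the 7 ligands (CPM, linear axes that differ between panels) in the 15 cell classes present in all 3 E17.5 lungs. Bars are the mean and points are the lungs, and the mesothelium is not shown; Wnt2 stands out in matrix fibroblast-like cells (mean 376 CPM) and the cycling mesenchyme (239 CPM), Wnt5a in Hhip-Ednrb myofibroblast-like cells (244 CPM), and Wnt7b in alveolar epithelium.

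Among the Wnt ligands of the mesenchyme, Wnt2 was a matrix fibroblast transcript. The gene lies on chromosome 6 at 17988940-18030585, minus strand (GRCm38, GENCODE). In matrix fibroblast-like cells its level was 412, 341 and 375 CPM in lungs 1, 2 and 3, or 376 ± 35.3 CPM (SD, n = 3), and 84.9% ± 3.6 of these cells held a Wnt2 UMI. The cycling mesenchyme, cluster 14, had 227, 217 and 274 CPM. Hhip-Ednrb myofibroblast-like cells had 27.5, 32.1 and 34.4 CPM. Among the 15 classes, the ranges of these 3 did not overlap with one another or with any class below them. Pericyte-like cells followed with a mean of 6.97 CPM, and each of the other 11 classes averaged 5.80 CPM or less, adventitial or proximal fibroblast-like cells among them at 3.86 CPM.

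The low levels in the other classes were close to those of immune cells. Macrophage or monocyte-like cells, which serve here as the background, had 3.78 CPM of Wnt2 and a UMI in 3.0% of cells. With every cell thinned to 2000 UMIs, the share with Wnt2 was 48.9% in matrix fibroblast-like cells and 0.838% in macrophage or monocyte-like cells. The median UMI totals of the 2 classes, 7552 and 7377, were close. A Wnt2 level of a few CPM in epithelial, endothelial and immune classes and free RNA cannot be told apart.

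The bases upstream of the Wnt2 start were read from RefSeq (GRCm38.p6, chr6:18030586-18030695, minus strand, written along the gene) because this ligand had the largest difference of the 7 between mesenchymal classes. Capitals mark the matches to 6 short motifs searched on both strands, namely the TCF/LEF core CTTTGA, the T-box core GGTGTG, a forkhead motif with the letters TGTTTAC, the GC box GGGCGG, the CCAAT box, searched by its name's letters, and the TATA box, searched as TATAAA.
Wnt2: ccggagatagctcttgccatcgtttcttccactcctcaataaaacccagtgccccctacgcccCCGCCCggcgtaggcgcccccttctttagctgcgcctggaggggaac
The 110 bases shown exclude 140 bases of the upstream window that are exonic in the annotation. They held 1 GC box, 187 bases before the RefSeq start, a motif found in 11.6% of all 32851 upstream windows of that length. The other 5 motifs had no match in these letters.

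Taken as compartments, mesenchyme had 232, 182 and 204 CPM of Wnt2 against a mean of 3.53 CPM in the other 3 compartments. The difference was 3.99 on the log2(CPM + 10) scale (SE 0.078, limma adjusted p = 2.51e-25, higher in 3 of 3 lungs). Differences between compartments were common: 42.6% of the 4164 genes tested were called higher in mesenchyme at an adjusted p under 0.05. Within the mesenchyme, matrix fibroblast-like cells exceeded the mean of the other 3 named classes by 4.18 log2 units (SE 0.149, limma adjusted p = 1.40e-18), where 10.4% of 4051 genes were called higher. Wnt2 was lower in adventitial or proximal fibroblast-like cells, by −2.23 log2 units (limma adjusted p = 2.39e-12), against 12.9% of genes called lower there. It was lower too in pericyte-like cells, by −1.84 log2 units (limma adjusted p = 4.63e-11), against 18.6% called lower. In myofibroblast-like cells the difference was −0.12 log2 units (limma adjusted p = 0.602), and its sign depended on the scale, being 0.33 with a pseudocount of 2 and −0.43 with one of 50 (limma adjusted p = 0.293 and 6.23e-05).

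Wnt5a, the ligand best known for acting through Ror receptors, was a myofibroblast transcript. It lies on chromosome 14 at 28504750-28527448, plus strand. Hhip-Ednrb myofibroblast-like cells had 226, 216 and 291 CPM (244 ± 40.9 CPM, SD, n = 3), and 69.7% ± 3.21 of them held a UMI. The cycling mesenchyme had 88.5, 83.4 and 53.9 CPM, and matrix fibroblast-like cells 53.1, 64.7 and 48.4 CPM. All 3 lungs were thus highest in the myofibroblast-like class, and the next 2 classes overlapped with each other. Adventitial or proximal fibroblast-like cells had 7.03, 28.3 and 30.7 CPM, with lung 1 well below the others, and pericyte-like cells averaged 6.71 CPM. None of the 15 classes outside the mesenchyme averaged more than 4.47 CPM. The background in macrophage or monocyte-like cells was 2.19 CPM, with a UMI in 1.66% of cells at a median of 7377 UMIs, against 6670 UMIs in the myofibroblast-like class.

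As a compartment, mesenchyme had 89.0, 88.0 and 103 CPM of Wnt5a against a mean of 1.71 CPM elsewhere, a difference of 3.14 log2 units (SE 0.066, limma adjusted p = 1.01e-24). Within the mesenchyme, the myofibroblast-like class was higher by 2.99 log2 units (SE 0.182, limma adjusted p = 1.36e-13), where 20.1% of genes were called higher. Pericyte-like cells were lower by −2.27 (limma adjusted p = 4.00e-11), and adventitial or proximal fibroblast-like cells by −1.11 (limma adjusted p = 2.72e-05). The latter call was lost at a finer clustering (−0.47, limma adjusted p = 0.241) and when cells with over 10% mitochondrial counts were dropped (−0.36, limma adjusted p = 0.370). The 2 alternatives are not independent checks. In both, the cells were clustered anew, the class fell from 221 to 124 and 117 cells, and a smooth muscle-like class joined the comparison. Matrix fibroblast-like cells did not pass the test (0.39, limma adjusted p = 0.116), and the direction depended on how the other classes were averaged. Their plain mean, 91.0 CPM, was above the 55.4 CPM of matrix fibroblast-like cells, while the mean of their log values was below it. In 5 of the alternative fits the log difference was called higher, edgeR's quasi-likelihood test among them (0.88, adjusted p = 1.19e-04), and at a pseudocount of 50 it was −0.01.

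Wnt11 had the same leading class as Wnt5a within the mesenchyme but was also found in epithelium. The ligand is known for branches of the pathway that do not need beta-catenin, and its gene lies on chromosome 7 at 98835112-98855195, plus strand. Myofibroblast-like cells had 21.3, 19.3 and 22.1 CPM (20.9 ± 1.44 CPM, SD, n = 3), above every lung of every other class present in 3 lungs. A UMI was seen in 12.5% of them and in 0.778% of macrophage or monocyte-like cells, which had 0.903 CPM. Alveolar type 1-like cells had 9.60, 7.39 and 6.14 CPM and alveolar type 2-like cells 5.43, 6.16 and 6.46 CPM. Matrix fibroblast-like cells had 2.08 CPM and pericyte-like cells 2.77 CPM.

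Wnt11 averaged under 10 CPM over the values compared, as did Wnt4, Wnt7b and Rspo3 between mesenchymal classes and all but Wnt2 and Wnt5a between compartments. These were tested by the same limma fit without the filter on low values. Without it, 29.4% of 9888 genes were called higher in mesenchyme and 22.0% higher in epithelium. Wnt11 was higher in mesenchyme by 0.49 log2 units (limma adjusted p = 1.61e-06) and in epithelium by 0.39 (limma adjusted p = 8.95e-06), each against the mean of the other compartments, and lower in endothelium (−0.48) and immune cells (−0.39), where 22.7% and 41.5% of genes were called lower. In the myofibroblast-like class it was higher by 1.2 log2 units (SE 0.132, limma adjusted p = 9.78e-05), where 10.1% of 8613 genes were called higher. It was lower in matrix fibroblast-like cells (−0.60, limma adjusted p = 0.0105), against 8.37% of genes called lower, a call lost when any 1 of the 3 lungs was left out (limma adjusted p from 0.0604 to 0.105). Added to low values, a pseudocount of 10 understates such differences: the count model of edgeR without a filter gave 2.48 log2 units for the myofibroblast-like class (adjusted p = 6.92e-14).

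For Wnt11, RefSeq gave 2 start sites. The window before the first (chr7:98834862-98835111, plus strand), which is the annotated start of the gene, is shown as that of a ligand led by another mesenchymal class than Wnt2, again with matches in capitals.
Wnt11: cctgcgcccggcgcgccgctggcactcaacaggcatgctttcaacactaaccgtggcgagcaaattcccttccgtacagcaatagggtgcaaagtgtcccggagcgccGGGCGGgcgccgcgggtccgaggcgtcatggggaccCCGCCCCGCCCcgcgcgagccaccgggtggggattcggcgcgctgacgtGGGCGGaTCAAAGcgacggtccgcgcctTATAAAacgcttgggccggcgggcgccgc
These 250 bases were 70.8% G or C, against a median of 52.4% over all windows. A TATAAA stood 29 bases before the start, with that motif in 12.4% of all windows. The TCF/LEF core stood 50 bases before the start (13.8% of windows), next to the nearest of 4 GC boxes (32.7% of windows). The window before the second start (chr7:98838595-98838844), with 56.8% G or C, matched none of the 6 motifs. In the 104 bases used upstream of Wnt4, 5 GC boxes were the only matches. Such matches describe letters only and are not evidence of binding.

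**Figure D2:**
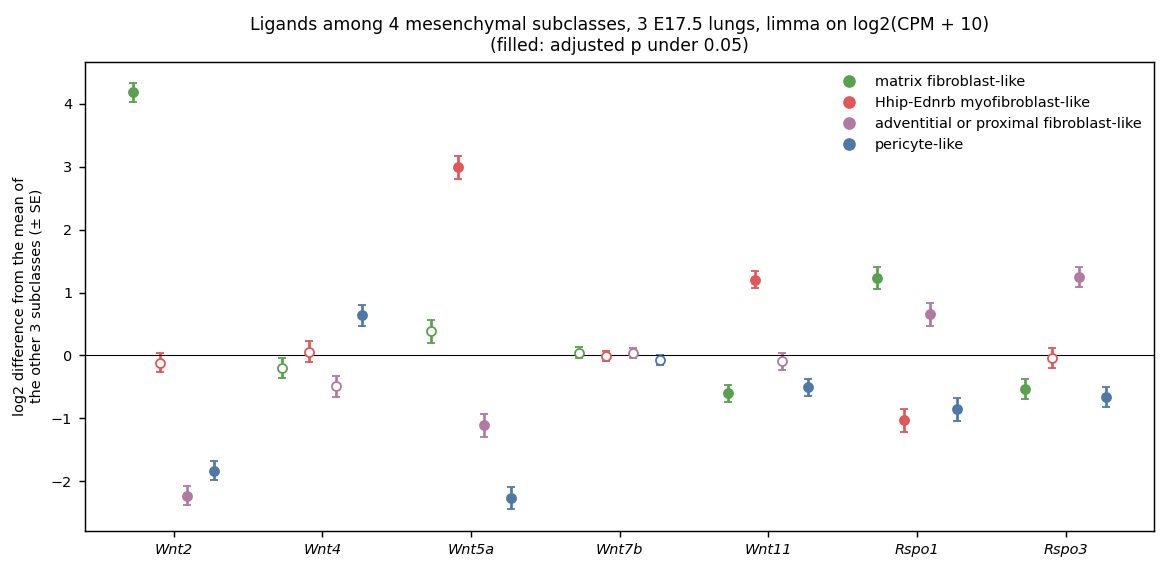
Difference of each ligand between 1 named mesenchymal class and the mean of the other 3 (log2 of CPM + 10, ± SE, 3 lungs), with filled markers for a limma adjusted p under 0.05. Wnt2, Wnt5a and Rspo1 come from the fit with a filter on low values and the others from the fit without it. Wnt2 lies highest in matrix fibroblast-like cells (4.18), Wnt5a and Wnt11 in myofibroblast-like cells (2.99 and 1.2) and Rspo3 in adventitial or proximal fibroblast-like cells (1.24). The last class includes cells that a finer clustering named smooth muscle-like.

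Wnt7b was the ligand of the epithelium. Its gene lies on chromosome 15 at 85535437-85582473, minus strand. Epithelium had 35.7, 34.8 and 32.5 CPM (34.3 ± 1.65 CPM, SD, n = 3), and 28.6% of its cells held a UMI. Endothelium had 1.14 CPM, mesenchyme 0.833 CPM and immune cells 1.40 CPM, with a UMI in 1.19% of immune cells. The difference was 2.00 log2 units in the limma fit without a filter (SE 0.066, adjusted p = 4.96e-09, higher in 3 of 3 lungs) and 5.13 in edgeR without a filter (adjusted p = 3.06e-253).

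Within the epithelium Wnt7b was shared by the distal classes. The cycling epithelium, cluster 12, had 45.8, 35.4 and 55.4 CPM. Alveolar type 1-like cells had 40.7, 32.3 and 43.3 CPM, and alveolar type 2-like cells 32.7, 38.3 and 23.5 CPM. These 3 classes overlapped. Secretory airway-like cells, with 11.4, 22.3 and 14.5 CPM, lay below all 3 without overlap. The alveolar type 1-like class exceeded the alveolar type 2-like class by 0.24 log2 units (SE 0.135), in 2 of 3 lungs, and did not pass the test (limma adjusted p = 0.187), where 34.4% of 3660 genes were called in either direction. Without lung 2 the difference was 0.46 and passed (limma adjusted p = 0.00598). The alveolar type 2-like class joined 2 clusters that differed in Wnt7b. The one led by Cldn6, Bex1 and Igfbp2 (466 cells) had 48.7, 42.8 and 35.1 CPM, and the one led by Retnla, Cxcl15 and Slc34a2 (485 cells) had 17.0, 31.6 and 15.5 CPM, so the first was higher in each lung. Wnt11 had the same order in these clusters, with means of 9.34 and 3.0 CPM, as had Wnt4, with 13.2 and 5.42 CPM. These differences between clusters were not tested.

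Wnt4 was found at low levels in all 4 compartments. Its gene lies on chromosome 4 at 137277489-137299726, plus strand, and the ligand is known from the kidney and the reproductive tract as well as the lung. Epithelium had 8.10, 12.5 and 9.22 CPM, mesenchyme 7.26 CPM, endothelium 6.81 CPM and immune cells 3.06 CPM. Among classes, secretory airway-like cells had 10.1, 24.3 and 20.2 CPM and pericyte-like cells 8.27, 18.4 and 18 CPM. Arterial-like cells had 8.71 CPM, adventitial or proximal fibroblast-like cells 3.59 CPM and macrophage or monocyte-like cells 3.10 ± 0.366 CPM. The 11 leading classes each overlapped with the next, and lung 1 was the lowest of the 3 in both classes at the top. Matrix fibroblast-like cells, with 4.72 to 6.67 CPM, lay above the 3.12 to 4.34 CPM of adventitial or proximal fibroblast-like cells without overlap. No Wnt4 UMI was seen in the 88 granulocyte or mast cell-like cells. With 0.801% of all UMIs, that class cannot be placed below macrophage or monocyte-like or adventitial or proximal fibroblast-like cells. Shares of cells with a UMI were 12.9% in secretory airway-like cells and 12.4% in pericyte-like cells against 2.51% in macrophage or monocyte-like cells, at median UMI totals of 10889, 7977 and 7377. Thinned to 2000 UMIs these shares came to 2.60%, 0.969% and 0.862%, so the share in pericyte-like cells could not be set apart from the background at that depth.

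Without the filter, limma placed Wnt4 higher in epithelium by 0.35 log2 units (adjusted p = 0.00228) and lower in immune cells by −0.46 (adjusted p = 3.17e-04). Mesenchyme (0.08, adjusted p = 0.414) and endothelium (0.03, adjusted p = 0.793) did not pass in the same fit. Among mesenchymal classes Wnt4 was higher in pericyte-like cells by 0.64 log2 units (SE 0.165, limma adjusted p = 0.0192), where 10.6% of genes were called higher. That call was lost in limma without lung 2 (0.49, adjusted p = 0.176), without lung 3 (0.56, adjusted p = 0.145) and at a coarser clustering (0.34, adjusted p = 0.307). At the coarser clustering the pericyte-like class held 290 cells instead of 193, so other cells were compared.

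Of the R-spondins, Rspo1 had its highest level in the mesothelium, the cell layer that covers the lung. The gene lies on chromosome 4 at 124986430-125009099, plus strand. The mesothelium had 780 CPM in lung 1 (15 cells) and 482 CPM in lung 3 (16 cells), and the single cell of lung 2 held 5 Rspo1 UMIs. Over the 32 cells there were 168 UMIs, found in 93.8% of cells, for a pooled 594 CPM with a 95% counting interval of 508 to 691 CPM. All 7 mesothelial markers searched were above 10 CPM in these cells. With 1 cell in lung 2 the class was left out of the tests.

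Below the mesothelium, Rspo1 was found in secretory airway-like cells at 46.6, 27.0 and 18.9 CPM (30.8 ± 14.2 CPM, SD, n = 3) and in matrix fibroblast-like cells at 24.6, 33.0 and 18.6 CPM (25.4 ± 7.21 CPM), ranges that overlapped. Adventitial or proximal fibroblast-like cells had 17.8, 11.8 and 18.5 CPM, just under the lowest lung of either. The others of the 15 classes averaged 5.16 CPM or less, myofibroblast-like cells 0.834 CPM among them, and the background in macrophage or monocyte-like cells was 1.41 CPM. A UMI was held by 24.9% of secretory airway-like cells, 15.3% of matrix fibroblast-like cells and 0.862% of macrophage or monocyte-like cells, at median totals of 10889, 7552 and 7377 UMIs. Thinned to 2000 UMIs the shares were 4.67%, 4.86% and 0.218%.

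The Rspo1 of the airway class rested on 34 UMIs in 105 cells. Mesothelial markers in that class summed to between 117 and 280 CPM over the lungs, with 1 of 7 above 10 CPM and Wt1 at 0, against 5022 to 6249 CPM in the mesothelium. The class also held ciliated cells, with 8 of 8 measured ciliated markers above 10 CPM. In a split made after these values were seen, 23 of the 73 cells with no UMI of the ciliated factor Foxj1 held Rspo1 (39.6 CPM, and 91.2, 34.4 and 22.8 CPM by lung), while 3 of the 32 cells with a Foxj1 UMI did (3.61 CPM). The secretory product Scgb1a1 had 4549 CPM in the former and 1395 CPM in the latter. The difference between these groups of cells was not tested.

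Within the mesenchyme, matrix fibroblast-like cells exceeded the other named classes in Rspo1 by 1.23 log2 units (SE 0.180, limma adjusted p = 3.21e-06). Adventitial or proximal fibroblast-like cells did so by 0.66 (limma adjusted p = 0.0077), where 10.8% of genes were called higher. The latter call was lost without lung 1 (0.59, adjusted p = 0.0993) and without lung 3 (0.55, adjusted p = 0.0713) in the limma fit. Rspo1 was lower in myofibroblast-like cells (−1.03, limma adjusted p = 4.28e-05), where 12.3% of genes were called lower, and in pericyte-like cells (−0.86, limma adjusted p = 3.17e-04). The pericyte call was lost in edgeR, DESeq2 and edgeR without a filter, where the adjusted p ranged from 0.0681 to 0.142. As a compartment, mesenchyme had 15, 17.8 and 11.8 CPM and was higher by 1.08 log2 units in limma without a filter (adjusted p = 1.65e-07). Epithelium, with 2.74 CPM, was lower by −0.20 in that fit (adjusted p = 0.0188), where 29.8% of genes were called lower, but edgeR without a filter gave 0.06 (adjusted p = 0.922), and limma did not call it without lung 1 (adjusted p = 0.0908) or lung 3 (adjusted p = 0.0639).

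The 250 bases before the Rspo1 start (chr4:124986180-124986429, plus strand) are shown as the R-spondin counterpart. At the main clustering, Rspo1 and Wnt2 were both highest among the mesenchymal classes in matrix fibroblast-like cells.
Rspo1: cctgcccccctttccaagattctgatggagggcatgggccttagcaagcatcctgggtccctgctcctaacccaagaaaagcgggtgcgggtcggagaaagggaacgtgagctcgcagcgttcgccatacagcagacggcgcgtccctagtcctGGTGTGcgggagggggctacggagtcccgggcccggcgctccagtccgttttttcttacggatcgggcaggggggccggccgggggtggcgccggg
The only motif matched was the T-box core GGTGTG, 96 bases before the start, which 16.3% of all windows of this length hold.

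Rspo3, the other R-spondin, was highest, among classes present in all 3 lungs, in the adventitial or proximal fibroblast-like class. At a finer clustering part of this class was named smooth muscle-like, and both parts held Rspo3. Its gene lies on chromosome 10 at 29452416-29535867, minus strand. The class as a whole had 15.7, 23.0 and 18.8 CPM (19.2 ± 3.71 CPM, SD, n = 3), from 36 UMIs, and 12.2% of its cells held a UMI. Every lung lay above every lung of all other classes present in 3 lungs. Myofibroblast-like cells had 3.74, 3.04 and 8.25 CPM, and matrix fibroblast-like cells 1.59 CPM. In the cycling mesenchyme all 7 UMIs came from lung 2, and the mesothelium held 5 UMIs, all in lung 1.

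No Rspo3 UMI was seen in epithelium, 0 of 20910632 UMIs, which allows a level of up to 0.143 CPM. None was seen in macrophage or monocyte-like cells, where the limit was 0.183 CPM, and immune cells as a whole held 1 UMI. Endothelium had 0.614 CPM from 8 UMIs. In limma without a filter, Rspo3 was higher in mesenchyme by 0.51 log2 units (adjusted p = 2.63e-07) and, within it, in adventitial or proximal fibroblast-like cells by 1.24 (SE 0.157, adjusted p = 4.36e-04), where 5.9% of genes were called higher. The same contrast was 3.53 in edgeR without a filter (adjusted p = 2.18e-12). Rspo3 was lower in pericyte-like cells by −0.66 (limma adjusted p = 0.0118), where 9.78% of genes were called lower. That call was lost without lung 1 (limma adjusted p = 0.0871) or lung 3 (limma adjusted p = 0.0627). At a coarser clustering the difference was 0.04 (limma adjusted p = 0.923), but that clustering compared other cells. The pericyte-like class held 290 cells there instead of 193, and the adventitial or proximal fibroblast-like class 119 instead of 221. The lower value in matrix fibroblast-like cells (−0.53, limma adjusted p = 0.0467) did not pass in 9 of 12 alternatives, among them each fit without 1 lung (limma adjusted p from 0.0853 to 0.254) and edgeR without a filter (adjusted p = 0.462).

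At a finer clustering the adventitial or proximal fibroblast-like class came apart into 124 cells that kept the name and 95 smooth muscle-like cells, and the R-spondins divided differently between them. Rspo3 had 21.2, 21.1 and 11.9 CPM in the former and 10.2, 27.2 and 27.4 CPM in the latter, ranges that overlapped. Rspo1 had 35.2, 13.4 and 33.2 CPM in the former, while the smooth muscle-like cells held 1 Rspo1 UMI. The mean of matrix fibroblast-like cells at the main clustering, 25.4 CPM, lay inside the range of the former. In the class as a whole, none of the 27 cells with a Rspo3 UMI held Rspo1, against 7.75% of the cells without Rspo3. With only 15 cells of the class holding Rspo1, an absence from 27 cells says little, and no test was made.

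**Figure D3:**
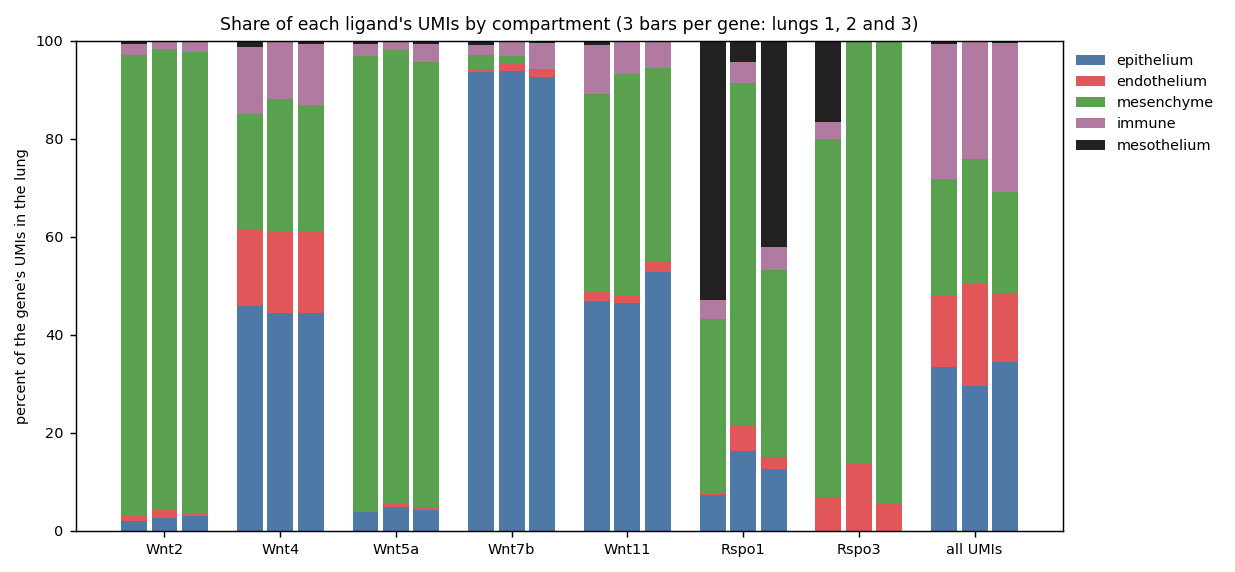
Share of each ligand's UMIs (percent, 1 stacked bar per lung) by compartment in the 3 E17.5 lungs, with all UMIs of each lung on the right. Mesenchyme holds 94.1% of Wnt2 and 92.0% of Wnt5a UMIs against 23.3% of all UMIs, epithelium 93.4% of Wnt7b UMIs, and the mesothelial share of Rspo1 runs from 4.27% to 52.9% between lungs.

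How much of a ligand's RNA a class supplied also depended on how many of its cells were captured. Mesenchyme supplied 94.1% ± 0.0532 of all Wnt2 UMIs (SD, n = 3) and matrix fibroblast-like cells alone 81.2% ± 3.65, from 11.1% of all UMIs. Of Wnt5a UMIs, 54.0% ± 7.51 came from myofibroblast-like cells, which gave 5.02% of all UMIs, and 28.1% ± 6.31 from matrix fibroblast-like cells. Of Wnt7b UMIs, 50.0% came from alveolar type 2-like and 28.9% from alveolar type 1-like cells. Wnt11 divided between epithelium (48.7% ± 3.49) and mesenchyme (41.8% ± 3.02), and Wnt4 gave 44.9% to epithelium, 25.5% to mesenchyme, 16.3% to endothelium and 12.6% to immune cells. For Rspo1 the mesothelium gave 52.9%, 4.27% and 42.1% of UMIs in lungs 1, 2 and 3 from 15, 1 and 16 cells. For Rspo3, 45.2% ± 15.6 came from the adventitial or proximal fibroblast-like class, its smooth muscle-like part included, with 2.70% of all UMIs.

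Within single classes the ligands were seen together in the same cells at differing rates. In matrix fibroblast-like cells, Wnt5a was found in 33.3% ± 6.36 (SD, n = 3 lungs) of the 805 cells with Wnt2 and in 24.0% ± 5.23 of those without, and Rspo1 in 14.6% ± 4.09 and 19.3% ± 7.70. In myofibroblast-like cells, Wnt11 was found in 14.3% ± 0.482 of the 324 cells with Wnt5a and in 8.51% ± 1.31 of those without. Wnt5a was found in 60.3% ± 9.14 of the 73 myofibroblast-like cells with Wnt2 and in 71.3% ± 4.99 of those without. Cells with more UMIs hold more of any gene, so these shares are given as a description, with no test.

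Across the 15 classes, Wnt5a had a Pearson r of 0.73 with Wnt2 and 0.69 with Wnt11, the highest of the 21 pairs, and Wnt7b had its lowest r with Rspo3, −0.35. The held-out genes with the pattern most like Wnt2 were Col25a1, Srpx2 and Slc38a5 (r from 0.92 to 0.95). For Wnt5a they were Kcns3, Bcas3os2 and Pth1r, the receptor for parathyroid hormone (0.96 to 0.98), and for Wnt7b Lamb3, a laminin chain, the transcription factor Irx1 and Sec14l4 (all 0.98). For Rspo3 they were Cxcl13, Pdgfrl and Twist2 (0.86 to 0.88). The closest to Wnt11 were Cntfr, Nnat and Mmp23 (0.81 to 0.83), the closest to Wnt4 Gpatch2, Psmd10 and Snw1 (0.85 to 0.87), and the closest to Rspo1 Col23a1, Wdr60 and Cetn4 (0.79 to 0.80). These are correlations over class means of the same 3 lungs, chosen as the highest of 4238 genes.

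Of the 14 other Wnt ligands, none averaged 10 CPM over the compartments. Wnt5b was the only one of them tested between mesenchymal classes, and its order was unlike that of Wnt5a. It was higher in adventitial or proximal fibroblast-like cells (1.09 log2 units, 45.3 CPM, limma adjusted p = 6.81e-05) and pericyte-like cells (0.83, 38.1 CPM, limma adjusted p = 8.53e-04). It was lower in myofibroblast-like (−0.87) and matrix fibroblast-like cells (−1.05). Of the 14, 2 were tested between alveolar classes and both were higher in alveolar type 1-like cells, the class through which they passed the filter on low values. Wnt3a had 30.9 CPM against 0.433 CPM in alveolar type 2-like cells (1.97 log2 units, limma adjusted p = 1.55e-10), and Wnt7a 21.4 against 2.75 CPM (1.3, limma adjusted p = 1.25e-07). Neither Rspo2 nor Rspo4 averaged 10 CPM, and Rspo2 was highest in matrix fibroblast-like cells, with 9.98, 3.97 and 5.12 CPM.

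Genes for releasing and receiving these ligands were measured in the same fits. Only genes averaging at least 10 CPM over the classes compared were tested. A gene could pass through 1 high class alone, so counts and medians of these lists describe the genes that passed. Wls, which carries Wnt proteins to the cell surface, was higher in epithelium (216 CPM against 54.7 CPM, 1.89 log2 units, limma adjusted p = 2.65e-20) and lower in matrix fibroblast-like cells than in the other mesenchymal classes (53.7 against 82.7 CPM, −0.51, limma adjusted p = 0.00252). Most genes differed between compartments: 76.4% of all genes tested were called in mesenchyme, 79.0% in endothelium, 76.8% in epithelium and 85.5% in immune cells. Of the 4164 genes, 1775 were called higher in mesenchyme, 2183 in endothelium, 1175 in epithelium and 1159 in immune cells. Those called lower numbered 1406, 1105, 2022 and 2403 in the same order. Of 6 acylation and secretion genes 5 were tested. In mesenchyme none was higher and 4 were lower (median −0.47 log2, against 0.06 over all genes), among them the retromer genes Vps26a (−0.56) and Vps35 (−0.47) and the sorting nexin gene Snx3 (−0.49). In epithelium 1 was higher and 3 were lower (median −0.14, against −0.12 over all genes), and in endothelium and in immune cells 3 were higher and 1 lower (medians 0.21 and 0.11, against 0.17 and −0.27). Of 18 receptors and co-receptors 8 were tested. In mesenchyme 6 were higher and 1 lower (median 1.58 log2, against 0.06 over all genes), led by Fzd1 (2.84), Ptk7 (2.11) and Ryk (1.95). In endothelium 3 were higher and 3 lower, with the vascular receptor Fzd4 at 63.0 CPM against 4.73 CPM (2.34 log2, limma adjusted p = 1.83e-21). In epithelium 3 were higher and 2 lower, led by Fzd2 (2.17), and in immune cells 7 were lower.

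Of the 5 R-spondin receptors and ligases, only Znrf3 was tested between compartments, and it was higher in epithelium (1.16 log2, limma adjusted p = 3.34e-14) and mesenchyme (0.52, limma adjusted p = 3.24e-07). Between mesenchymal classes Lgr6, a receptor for R-spondins, was higher in myofibroblast-like cells (85.1 CPM against 3.30 CPM, 2.90 log2, limma adjusted p = 2.67e-14), the class with 0.834 CPM of Rspo1 and 5.01 CPM of Rspo3. Lgr6 passed the filter on low values only through that class, so the call as higher there was favoured in advance. It was lower in matrix fibroblast-like cells (−1.29, limma adjusted p = 2.93e-07), where 19.2% of genes were called lower. Among the response genes of beta-catenin signalling, 4 of 10 were tested and all 4 were higher in mesenchyme (median 1.52 log2, against 0.06 over all genes), Axin2 by 1.61 and Tcf7 by 1.53. Of all genes, 42.6% were called higher there. In immune cells, where 2403 of 4164 genes were called lower, all 4 were lower. In epithelium 1 was higher and 3 lower, and in endothelium 2 were higher and 2 lower. The filter could be passed through mesenchyme alone, here and for the inhibitors, so these counts are no test of the lists. Of 15 secreted inhibitors 3 were tested and all 3 were higher in mesenchyme, and 5 were tested between its classes. Between the classes, a gene could likewise pass the filter through 1 class alone, so the counts that follow describe the genes that passed. In myofibroblast-like cells, where 20.1% of all genes were called higher, 4 were higher and 1 lower (median 2.22 log2, against 0.07 over all genes), led by Wif1 (2.90), Notum (2.60) and Sfrp2 (2.22). In adventitial or proximal fibroblast-like cells, where 10.8% were called higher, 4 were also higher and 1 lower (median 1.65, against −0.03), led by Wif1 (1.88), Sfrp1 (1.85) and Sfrp2 (1.65). In matrix fibroblast-like and in pericyte-like cells none was higher and 4 were lower (medians −1.76 and −1.87), where 19.2% and 18.6% of genes were called lower.

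The E16.5 sort was set beside the same classes of the E17.5 lungs. It held 2997 mesenchymal cells and 57 others, of which 30 were epithelial, 20 endothelial and 7 erythroid. Its mesenchymal cells had 3128 CPM of Acta2, the gene whose promoter drives the reporter, against 180 CPM in the other 57 and 1233 ± 167 CPM in lung mesenchyme. Tbx4 had 44.5 CPM against 3.47 CPM in the other 57 cells and 44.7 ± 5.37 CPM in lung mesenchyme. Stage, reporter, sorting and library all differ between the sort and the lungs and cannot be told apart, and with 1 sorted sample there is no test. A gene was counted as apart in a class where its level in the sort lay beyond all 3 lungs by 2-fold or more. The shares of genes given for this rule are over held-out genes averaging at least 10 CPM between the sort and the lungs in that class. Some ligands averaged less, among them Wnt4, Wnt11 in matrix fibroblast-like cells and Wnt2 in pericyte-like cells. For these ligands the shares are not a like comparison.

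**Figure D4:**
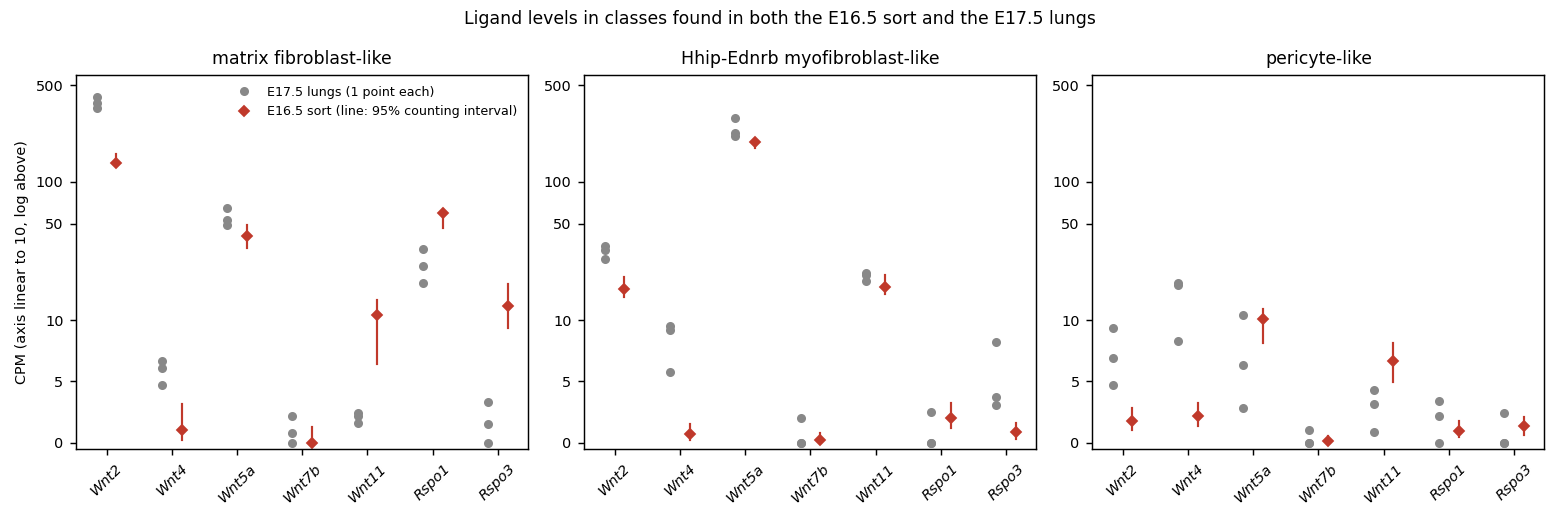
Level of each ligand (CPM, axis linear to 10 and logarithmic above) in 3 classes present in both the E16.5 sort (diamond, with the 95% counting interval of the summed counts as a line) and the 3 E17.5 lungs (points). In matrix fibroblast-like cells the sort lies at least 2-fold below all lungs for Wnt2 (136 against 341 to 412 CPM) and Wnt4. It lies at least 2-fold above them for Wnt11 and Rspo3. By less than 2-fold, it lies above all lungs for Rspo1 and below them for Wnt5a in that class. Wnt5a in myofibroblast-like cells is near the lungs (195 against 216 to 291 CPM).

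Wnt2 was again highest in matrix fibroblast-like cells in the sort, but at a mean over cells of 136 CPM against 341 to 412 CPM in the lungs. Its 407 UMIs in 291 cells, pooled, gave a counting interval of 132 to 161 CPM for the pooled level. In that class 4.41% of 3903 genes were at least 2-fold below every lung. At a finer clustering of the sort the value was 180 CPM and no longer 2-fold below. The cycling cluster 10 had 110 CPM and myofibroblast-like cells 16.8 CPM, below the 27.5 to 34.4 CPM of the lungs by less than 2-fold. Pericyte-like cells had 1.80 CPM, against 4.70 to 9.35 CPM in the lungs, where 3.85% of 3841 genes were as far below. Both values are near the Wnt2 background of the lungs.

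Wnt5a kept its leading class, with a mean over cells of 195 CPM in the 765 myofibroblast-like cells of the sort. Its 1627 UMIs, pooled over these cells, gave a counting interval of 177 to 195 CPM for the pooled level. Cluster 13, led by cell-cycle genes, had 152 CPM, and cluster 12, led by the muscle genes Actc1, Myl7 and Cnn1 among others, had 90.6 CPM. Matrix fibroblast-like cells had 40.5 CPM against 48.4 to 64.7 CPM in the lungs. Adventitial or proximal fibroblast-like cells had 71.1 CPM, but from 16 UMIs in 28 cells. Wnt11 had 158 UMIs in myofibroblast-like cells, a counting interval of 15.3 to 21.0 CPM, against 19.3 to 22.1 CPM in the lungs, and 10.8 CPM in matrix fibroblast-like cells (27 UMIs), against 1.65 to 2.39 CPM. In the latter class 3.15% of genes were at least 2-fold above every lung.

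Rspo1 in the sort was again found in matrix fibroblast-like cells, at 59.5 CPM (152 UMIs) against 18.6 to 33.0 CPM, a difference under 2-fold from the highest lung. With doublets kept or the mitochondrial filter applied it was 39.5 or 42.1 CPM. Cluster 8 had 53.2 CPM and myofibroblast-like cells 2.00 CPM. Rspo3 was highest in cluster 6, at 64.3 CPM (103 UMIs, in 34.0% of its 153 cells), with 13.9 CPM in cluster 3 and 12.5 CPM in matrix fibroblast-like cells. Cluster 6 was led by Ptn and Prss35, both also among the leading genes of the adventitial or proximal fibroblast-like cluster of the lungs, but it did not meet the marker rule for that name. In myofibroblast-like cells Rspo3 had 0.849 CPM, from 7 UMIs, against 3.04 to 8.25 CPM in the lungs. The Rspo3 of matrix fibroblast-like cells was above the 0 to 3.29 CPM of the lungs, and fell to 5.96 CPM without cells of over 10% mitochondrial counts.

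Wnt4 was lower in the sort in all 3 classes compared. It had 1.01 CPM in matrix fibroblast-like cells (lungs 4.72 to 6.67), 0.705 CPM in myofibroblast-like cells (5.74 to 9.55) and 2.21 CPM in pericyte-like cells (8.27 to 18.4). In the myofibroblast-like class 4.03% of 4016 genes were as far below the lungs. Immune cells of the lungs had 3.06 CPM of Wnt4, so the lung ranges of the matrix fibroblast-like and myofibroblast-like classes are near the background. Whether free RNA differed between the sort and the lungs was not tested. None of the 7 ligands was at least 2-fold above every lung in the myofibroblast-like or the pericyte-like class, where 0.697% and 0.781% of genes were. Of 79 Wnt7b UMIs in the sort, 74 were in the 30 epithelial cells, and the 2997 mesenchymal cells held 5.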

How the data were processed

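Per the labels, lungs were dissociated enzymatically and single cells captured for sequencing. The submitters' processing notes name Cell Ranger 1.3.1 and Seurat 3.0.0, and neither their roles nor a genome build is given in the sources used here. Each deposited library holds a normalized signal from the authors, in which, as the values show, each cell sums to the median UMI total of its sample. Dividing by the smallest value of a cell gave whole UMI counts for 100% of values (tolerance 0.01), and CPM was computed from these.

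Depth was 23996253, 20347458 and 21358915 UMIs in 2682, 2140 and 2657 cells of the lungs and 41038008 in 3085 sorted cells. Doublets called by scrublet (1.00 to 1.59% of cells) were removed. The genes were divided at random by symbol into 10487 for clustering, with all markers, and 10187 held out, with the 7 ligands and all gene lists. Cells were clustered with scanpy 1.11.5 (2000 variable genes, 30 components, 15 neighbours, Leiden resolution 1) and classes named from marker lists, under conditions completed after the clusters had been seen. The 7 genes and the lists were chosen with earlier results of these data known.

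Each class with at least 20 cells in every lung gave 1 mean per lung. These were compared with limma 3.58.1 on log2(CPM + 10), with the lung as a block and Benjamini-Hochberg adjustment over all held-out genes averaging at least 10 CPM. Classes of 1 lung come from the same animal, and their deviations correlated in each lung between compartments (0.213 to 0.373), mesenchymal classes (0.060 to 0.128) and alveolar classes (0.125 to 0.236). The alternatives were other pseudocounts, no filter, median-of-ratios scaling, edgeR 4.0.16 and DESeq2 1.42.0 on the recovered counts, other clusterings, a mitochondrial filter, doublets kept, no block and each lung left out. For ligands under the filter these were run without it, edgeR being the only count test. Genes were named by a rule: the 7 ligands, and per list and comparison up to 3 called genes with the largest difference in 1 direction in 3 of 3 lungs. Counting intervals are exact Poisson intervals on the UMIs pooled over the cells of a class, not on the mean of per-cell CPM. Like limits from a count of 0 (3 counts), they cover counting error only. Upstream sequences came from RefSeq for 4 of the 7 genes, and promoters of the other 3 were not used here. The fits were also run on simulated counts drawn without an effect shared within a lung, unlike the correlations above. That run does not measure their error rate in these lungs.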

Additional observations from a re-analysis of the deposited data

How the results depend on the processing

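Over 21 tested differences of ligands past the filter on low values and 315 alternative values, 294 kept direction and side of the threshold, 7 lost the call, 7 gained one and 7 changed sign. The sign changes concerned Wnt2 in myofibroblast-like cells (−0.12 log2), which was 0.33 with a pseudocount of 2, 0.30 in edgeR, 0.33 in DESeq2, 0.33 in edgeR without a filter, 0.33 with the mitochondrial filter and 0.32 at Leiden resolution 1.5, and Wnt5a in matrix fibroblast-like cells (0.39), which was −0.0059 with a pseudocount of 50. With the mitochondrial filter and at Leiden resolution 1.5 the mesenchymal fit also held a smooth muscle-like class, of 94 and 95 cells. The cause was not tested. The number of genes called rose without a filter, by construction from more genes tested, to 5123 in epithelium, 5120 in endothelium, 5139 in mesenchyme and 5905 in immune cells, against 3197, 3288, 3181 and 3562. In edgeR without a filter the counts were 4997, 4882 and 5378 in epithelium, mesenchyme and immune cells and 1855 in matrix fibroblast-like cells (1197 in limma). DESeq2 called 585 genes in adventitial or proximal fibroblast-like cells (limma 959) and 672 between alveolar classes (limma 1260), and the cause was not tested. Median-of-ratios scaling moved the median difference over all genes from 0.17 to −0.04 log2 in endothelium, −0.27 to −0.04 in immune cells and 0.06 to −0.04 in mesenchyme, and the share of calls that were higher from 66.4 to 45.1% in endothelium, 55.8 to 45.3% in mesenchyme, 32.5 to 47.5% in immune cells, 62.1 to 49.1% in myofibroblast-like and 35.2 to 48.6% in matrix fibroblast-like cells. Under this scaling the 21 differences kept their directions. Without the lung as a replicate block, Wnt2 in mesenchyme stayed at 3.99 log2 (limma adjusted p = 1.25e-17), and 3077 genes were called there. No call among the 21 differences, or among the 18 below, changed without the block. For the 18 differences of ligands under the filter that are reported from limma without it, the same choices were varied in alternatives added after the data were seen. Of 216 values 188 kept direction and side of the threshold, 23 lost the call and 5 changed sign. The sign changes were Wnt4 in endothelium (0.03), at −0.0717 with median-of-ratios scaling, −0.0310 without lung 3 and −0.12 in edgeR, Rspo1 in epithelium at 0.0645 in edgeR, and Rspo3 in pericyte-like cells at 0.0375 with Leiden resolution 0.6. At that resolution the pericyte-like class held 290 cells instead of 193. The lost calls concerned Rspo1 in epithelium, Wnt11 and Rspo3 in matrix fibroblast-like cells, and Wnt4 and Rspo3 in pericyte-like cells, and the cause was not tested. The call of Rspo1 in adventitial or proximal fibroblast-like cells needed lungs 1 and 3, and Wnt7b differed between alveolar classes only without lung 2. With 84 Rspo3 UMIs and 275 Wnt11 UMIs in the 3 lungs, many classes held fewer than 10 UMIs of either, which limits their order.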
